A study of Mus musculus with 12 samples.

Results

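The genes described here are 1870 long noncoding RNA (lncRNA) genes of the mouse genome that lie upstream of a protein-coding gene and are transcribed away from it. They were taken from the deposited gene annotation (build mm9) as genes with an identifier of n plus digits whose span overlaps no protein-coding gene. Each had its nearest protein-coding gene within 5000 bases, on the opposite strand, and lay beyond that gene's 5′ end. They made up 1870 of the 36991 lncRNA genes of this kind and of the 57683 genes in the deposited count table. They lay beside 1230 coding genes, 902 of which had a single divergent lncRNA gene and 1 of which had 20.

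Polyadenylated RNA was measured in hearts of wild-type female FVB/NJ mice aged 12 weeks. Cells of 3 hearts were dissociated by Langendorff perfusion and collagenase and were separated by gravity into cardiomyocytes, the contracting muscle cells, and nonmyocytes. Cardiomyocyte RNA was taken at once, whereas nonmyocytes were first cultured and were described by the submitters as mostly fibroblasts, and the effects of culture and of cell type cannot be told apart. The labels differ on the culture, giving passage 1 in one place and 2 passages in another, and each fraction gave 3 libraries. Nothing ties a library to a heart, and a p-value given here therefore reflects library-to-library spread, part of which may be technical.

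Many active promoters fire in both directions, giving a messenger RNA on one side and a noncoding transcript on the other. The upstream transcript is often short-lived and kept at a low level, though some are spliced, polyadenylated and stable. Several heart transcription factor genes, Hand2 and Tbx5 among them, are known for such a partner, and a divergent lncRNA has been studied both as a by-product of an open promoter and as a regulator of its neighbour. Only the polyadenylated, stable share of these transcripts can be seen in the libraries used here. The libraries keep no strand, so reads of a lncRNA gene and of an unannotated upstream exon of its coding gene cannot be told apart, and the share of such reads was not tested.

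Divergent genes are transcribed away from a common promoter region. RefSeq promoter sequences (build GRCm38.p6) were found for 949 of the 1230 coding genes, and 6 of them are printed because they stand for the patterns described later: a pair that was higher together in cardiomyocytes (Bcl6), a pair that was lower together (Sept11), a pair that was lower by unequal amounts (Rbms3), a pair that moved in opposite directions (Irx2), and pairs in which the lncRNA gene alone passed the test (Atxn7l1 and Sema5a). Each run holds the 250 bases before the coding gene's start, 5′ to 3′ on the coding strand. The lncRNA gene lies toward the left of each run and is read leftward. Capitals mark matches, on either strand, to the GC box (GGGCGG), the CCAAT box (CCAAT), the TATA box (TATAAA), the E-box CACGTG and the ETS core (CCGGAAG).
Bcl6 promoter: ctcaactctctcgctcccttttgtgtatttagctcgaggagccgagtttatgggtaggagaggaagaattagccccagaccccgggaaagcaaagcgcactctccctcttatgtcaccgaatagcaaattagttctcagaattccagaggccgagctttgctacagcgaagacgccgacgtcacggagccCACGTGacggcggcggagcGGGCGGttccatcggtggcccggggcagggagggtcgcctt
Sept11 promoter: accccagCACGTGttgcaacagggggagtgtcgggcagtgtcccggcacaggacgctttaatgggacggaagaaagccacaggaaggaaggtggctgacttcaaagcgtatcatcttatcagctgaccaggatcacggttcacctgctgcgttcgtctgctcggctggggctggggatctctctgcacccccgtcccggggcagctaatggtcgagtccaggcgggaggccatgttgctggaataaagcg
Rbms3 promoter: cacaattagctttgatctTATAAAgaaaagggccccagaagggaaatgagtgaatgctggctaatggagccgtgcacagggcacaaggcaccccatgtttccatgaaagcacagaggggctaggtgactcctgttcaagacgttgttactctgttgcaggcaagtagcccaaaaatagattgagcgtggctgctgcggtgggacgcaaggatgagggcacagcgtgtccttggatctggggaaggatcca
Irx2 promoter: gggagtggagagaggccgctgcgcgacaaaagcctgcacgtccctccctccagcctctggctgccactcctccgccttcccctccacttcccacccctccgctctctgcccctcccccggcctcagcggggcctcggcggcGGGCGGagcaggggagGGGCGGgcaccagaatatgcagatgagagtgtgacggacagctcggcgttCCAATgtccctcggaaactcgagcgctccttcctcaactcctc
Atxn7l1 promoter: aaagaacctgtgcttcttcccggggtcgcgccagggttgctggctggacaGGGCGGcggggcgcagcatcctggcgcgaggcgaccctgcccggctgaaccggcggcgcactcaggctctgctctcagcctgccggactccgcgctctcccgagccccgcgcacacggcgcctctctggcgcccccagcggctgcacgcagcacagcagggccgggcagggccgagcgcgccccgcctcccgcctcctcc
Sema5a promoter: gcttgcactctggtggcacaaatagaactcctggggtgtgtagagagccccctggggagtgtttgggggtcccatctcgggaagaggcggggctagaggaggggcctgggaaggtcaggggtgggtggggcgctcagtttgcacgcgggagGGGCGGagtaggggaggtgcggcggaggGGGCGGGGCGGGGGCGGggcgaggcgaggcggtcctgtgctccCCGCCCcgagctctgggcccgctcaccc

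Their positions in GRCm38.p6 are chr16:23988853-23989102 on the minus strand for Bcl6, chr5:93093166-93093415 on the plus strand for Sept11, chr9:117629914-117630163 on the minus strand for Rbms3, chr13:72628570-72628819 on the plus strand for Irx2, chr12:33147436-33147685 on the plus strand for Atxn7l1 and chr15:32244563-32244812 on the plus strand for Sema5a. In mm9 the annotated gap between the paired genes is 221 bases at Bcl6, 99 at Sept11, 77 at Rbms3, 255 at Irx2, 106 at Atxn7l1 and 150 at Sema5a. Bcl6, Atxn7l1, Irx2 and Sema5a hold a GC box in this window, Bcl6 and Sept11 hold the E-box, Irx2 also holds a CCAAT box, and Rbms3 holds TATAAA. Except at Irx2, the run is longer than this gap and reaches into the annotated lncRNA gene, where the matches near the left end of the Sept11, Rbms3 and Atxn7l1 runs fall if the gap is alike in both builds. A match is a description of the letters and not a bound site.

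Promoters of the coding genes beside divergent lncRNA genes were rich in CpG. Among the 949 matched promoters, the median GC content was 62.8% and the median ratio of observed to expected CpG was 0.80, against 55.6% and 0.56 among all 16897 coding promoters of the table. A GC box was present in 65.8% of them, against 43.9% of all coding promoters, and the ETS core in 14.6% against 9.37%. The TATA box was present in 5.58% against 12.2%, the CCAAT box in 36.0% against 36.2% and the E-box in 8.75% against 6.79%. Some letters of a GC box overlap a CpG-rich stretch by their nature, and these shares were given no test. The sets were not matched for expression. Enough reads to be tested were found for 78.9% of the 1230 coding genes, against 59.7% of all coding genes.

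Most divergent lncRNA genes were close to their coding gene. The median gap was 264.5 bases (quartiles 125 and 1124.5), the range was 0 to 4989, and 73.7% of the genes lay within 1000 bases. A single exon was annotated for 43.7% of them, and the median exon length was 1199 bases. The plot of distances shows the same pile-up at short range for all genes and for those with enough reads to be tested.

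**Figure D1:**
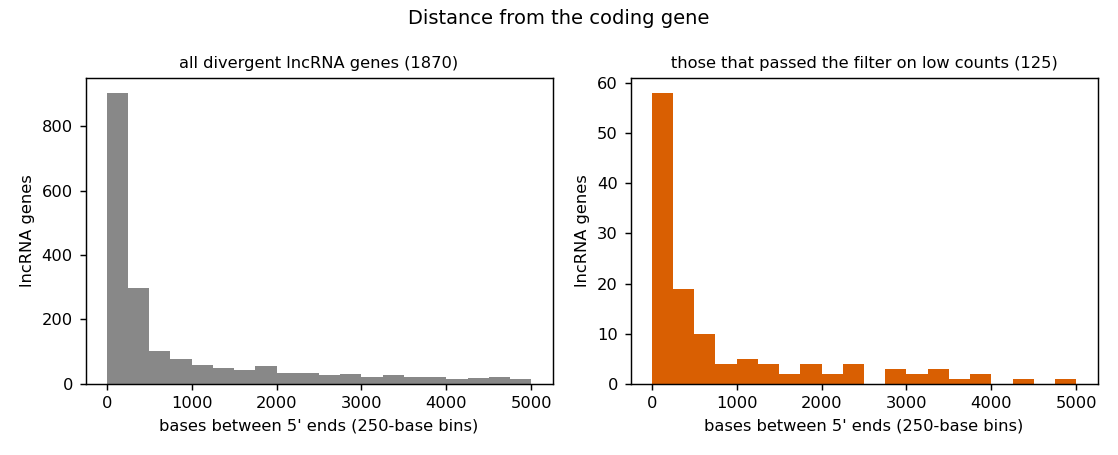
Number of divergent lncRNA genes (y axis) by the number of bases between the 5′ ends of the lncRNA and coding gene (x axis, 250-base bins), for all 1870 genes on the left and for the 125 that passed the filter on low counts on the right. In both panels the first bin is the highest; the median gap was 264.5 bases for all and 277 for those that passed.

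Few of these genes gave enough reads to be tested. Of the 1870, 997 had no read in any of the 6 libraries, 748 had reads but did not pass the filter on low counts, and 125 (6.68%) passed. The share that passed was 7.38% among all lncRNA genes of this kind and 59.7% among coding genes. A count of 0 in a single library allows a level of up to 0.145 to 0.581 CPM (counts per 1000000 counts) by counting error, the limit of 3 counts, depending on its depth. Not every gene may have been countable: 431 divergent lncRNA genes share all their exon bases with other annotated genes, and all 431 had no read, while among the 831 that share no exon base 280 had none. How shared reads were counted is not given in the sources used here, and 125 are 8.69% of the 1439 other genes. A gene that passed through the fraction where it is high had to differ between fractions. Of the 125, 17 were above the filter's minimum in cardiomyocyte libraries only and 29 in nonmyocyte libraries only.

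Depth differed between libraries, with totals of 5956831 to 26851830 reads in cardiomyocytes, of which library 1 was the shallowest, and 8126422 to 10792544 in nonmyocytes. A read of a divergent lncRNA gene was found for 250, 543 and 592 of the genes in cardiomyocyte libraries 1 to 3, and for 507, 448 and 457 in the nonmyocyte libraries. The 6 cardiomyocyte markers summed to 109624 to 146109 CPM in cardiomyocytes and 760 to 1021 in nonmyocytes, and the 6 fibroblast markers to 266 to 399 against 11513 to 13391. The 6 endothelial markers summed to 325 to 723 CPM in cardiomyocytes and 76.4 to 87.2 in nonmyocytes, and the 6 smooth muscle and pericyte markers to 319 to 734 against 284 to 324. The 6 macrophage and leukocyte markers summed to 43.8 to 53.4 against 89.9 to 99.9, and the 5 red cell genes to 12.7 to 605, highest in cardiomyocyte library 1, against 1.63 to 3.96. No marker was at 0 in all 6 libraries. The part of these other cells in the changes described next was not tested.

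The summed level of all divergent lncRNA genes was small in both fractions. It was 526, 590 and 548 CPM in the cardiomyocyte libraries and 394, 413 and 409 in the nonmyocyte libraries, so the groups did not overlap, with means of 555 ± 32.6 and 405 ± 9.95 (SD, n = 3 each; exact two-sided permutation p = 0.1, the smallest that 3 against 3 allows). This order depended on the scaling: as a plain share of all counts, the sum was 0.0456%, 0.0425% and 0.0432% in cardiomyocytes and 0.0489%, 0.0526% and 0.0514% in nonmyocytes. CPM here is relative to the library total after scaling by the trimmed mean of M values (TMM), which discounts the few very abundant muscle transcripts. The 10 highest genes held 22.1% of the summed level, 106 genes averaged at least 1 CPM and 4 averaged at least 10.

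Of the 125 divergent lncRNA genes tested, 41 were higher in cardiomyocytes, 26 were lower and 58 did not pass the test (edgeR's quasi-likelihood test, Benjamini-Hochberg adjusted p under 0.05 over the 14734 genes tested). That is 53.6% called, against a background of 63.7% of all genes tested, 31.6% higher and 32.1% lower. The median log2 fold change of cardiomyocytes over nonmyocytes was 0.44, against -0.02 over all genes tested, and setting the 3 genes with no read in one fraction to their bounds does not move it. Other lncRNA genes within 5000 bases had medians of 0.61 (downstream, same strand), 0.36 (downstream, opposite strand) and 0.39 (upstream, same strand). For divergent lncRNA genes beyond 5000 bases the median was 0.08. In bulk RNA, fewer cells of a type and less RNA per cell cannot be told apart. With plain library totals as the scale, 25 were higher and 35 lower, so that 41.7% of calls were toward cardiomyocytes in place of 61.2%, and the median of all genes moved to -0.70. Over all genes tested, the share of calls toward cardiomyocytes was likewise 30.9% in place of 49.6%. The libraries of the fractions did not overlap for 79 of the 125 (63.2%), against 70.4% of all genes tested. Of the 67 called genes, 64 changed at least 2-fold. The calls include genes for which the filter itself required a difference. Among the 125, 17 were above its minimum in cardiomyocyte libraries only and 29 in nonmyocyte libraries only. The former include the lncRNA genes of Foxo6, Prdm16, Klhl34, Actc1, Bcl6 and Tbx5, described below. The latter include those of Tgif2, Serpinb6a, Sept11, Izumo4, Atxn7l1, Cyr61, Irx2 and Tbx20. A call, adjusted p or counting interval of such a gene is therefore no separate support for its change.

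Among lncRNA genes with at least 2 CPM in each cardiomyocyte library, those with the largest increases lay beside Foxo6, Prdm16, Klhl34, Actc1, Wee1 and Bcl6. The lncRNA gene n293833 (mm9, chromosome 4, 119963954 to 119976497, plus strand, 2 exons) lies 3999 bases from Foxo6, a forkhead transcription factor, for which the later GENCODE M21 annotation lists Foxo6os as the divergent neighbour. It was at 2.91, 9.79 and 10.7 CPM in cardiomyocyte libraries 1 to 3 and at 0.0746, 0.0966 and 0 in the nonmyocyte libraries. The groups were far apart, and cardiomyocyte library 1 was the lowest of its group. With 424 reads against 2, the ratio of pooled levels was 172 (95% counting interval 47.4 to 1427; adjusted p = 6.17e-06 by edgeR). Foxo6 itself was at 11.04, 13.9 and 13.1 CPM against 0.597, 0.193 and 0.233, a log2 fold change of 5.15 ± 0.47 (SE; adjusted p = 6.32e-07 by edgeR).

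The lncRNA gene n273307 (chromosome 4, 154011684 to 154018825, plus strand, 2 exons) starts 701 bases from Prdm16, a zinc-finger transcription factor whose mutation is linked to cardiomyopathy. It was at 7.56, 12.7 and 15.3 CPM in cardiomyocytes and at 0.149, 0.193 and 0 in nonmyocytes. It was thus near the limit of detection in every nonmyocyte library, and its log2 fold change was 6.66 ± 0.63 (adjusted p = 8.88e-07 by edgeR). Prdm16 was at 30.9 ± 5.45 against 2.07 ± 0.723 CPM (SD, n = 3 each), a log2 fold change of 3.88 ± 0.32.

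At Klhl34, which encodes a kelch-like protein, the single-exon lncRNA gene n288180 (chromosome X, 154253227 to 154256045, minus strand) was at 7.36, 9.01 and 7.90 CPM in cardiomyocytes and 0.0746, 0.193 and 0 in nonmyocytes. With 375 reads against 3, the ratio of pooled levels was 102 (95% counting interval 34.5 to 495). Klhl34 changed by nearly the same amount on the log2 scale, 6.46 ± 0.38 against 6.47 ± 0.65 for its lncRNA gene, though the latter was 7.48 without nonmyocyte library 2. The lncRNA gene n269828 (chromosome 2, 113882051 to 113890604, plus strand, 5 exons), 2766 bases from the cardiac alpha-actin gene Actc1, was at 5.42, 5.59 and 6.54 CPM against 0.149, 0.0966 and 0. Its ratio of pooled levels was 73.4 (95% counting interval 24.8 to 358), from 271 and 3 reads, and its fitted log2 fold change was 6.01, or 6.86 without nonmyocyte library 1. Other noncoding genes share 51.3% of its exon bases, so that its level is uncertain.

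Actc1 shows how far apart the levels of a pair can be. Its messenger RNA averaged 14032 CPM in cardiomyocytes and 103 in nonmyocytes. Per kilobase of exon, the lncRNA gene n269828 was at 0.0711% of Actc1 over all libraries. At Klhl34 that share was 24.9%, at Foxo6 68.7% and at Prdm16 95.6%. With cardiomyocytes and nonmyocytes apart, it was 24.8% and 25.3% at Klhl34, 70.0% and 19.1% at Foxo6, and 101% and 14.5% at Prdm16. The nonmyocyte values rest on very few lncRNA reads. Prdm16 has 36.0% of its exon bases in common with other annotated genes, so that its share is uncertain.

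Farther down the order came the lncRNA genes of Wee1 and Bcl6. Wee1, a kinase that holds cells before mitosis, lies 315 bases from n274783 (chromosome 7, 117263503 to 117265254, minus strand, 1 exon). This lncRNA gene was at 10.7, 20.5 and 22.3 CPM in cardiomyocytes and 0.821, 1.26 and 1.55 in nonmyocytes. The log2 fold change was 3.89 ± 0.41 (adjusted p = 2.33e-06 by edgeR). Wee1 has 79.8% of its exon bases in common with other annotated genes, and its own level is therefore uncertain. The lncRNA gene n264879 (chromosome 16, 23989160 to 23992539, plus strand, 1 exon), at Bcl6, a transcriptional repressor, was at 2.13, 6.53 and 7.95 CPM against 0.746, 0.193 and 0.310, a log2 fold change of 3.71 ± 0.65, or 4.46 without nonmyocyte library 1. Bcl6 was also higher, at 62.4 ± 9.59 against 19.98 ± 0.609 CPM, with 58.7% of its exon bases in common with other annotated genes.

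**Figure D2:**
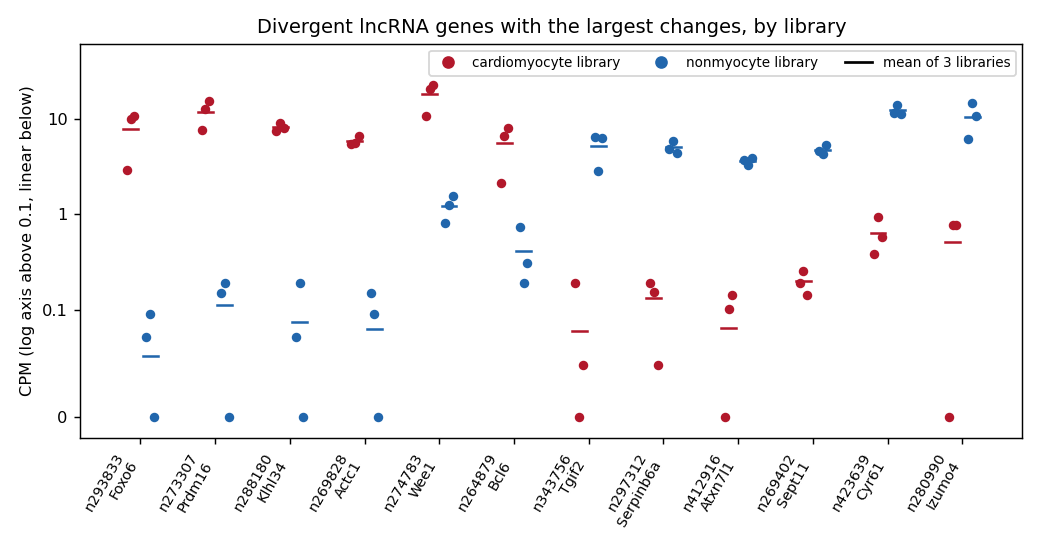
CPM (y axis, logarithmic above 0.1 and linear below) of the 6 divergent lncRNA genes per direction with the largest called changes among those with at least 2 CPM in each library of the higher fraction and no overlap between fractions, each named with its coding gene; points are libraries and bars are means of 3 libraries. Genes of lower level with larger changes are left out by that rule.

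On the other side, n343756 (chromosome 2, 156652512 to 156665609, minus strand, 5 exons) had few reads in cardiomyocytes. It lies 203 bases from Tgif2, a homeodomain repressor in transforming growth factor signalling, and was at 0.194, 0 and 0.0485 CPM in cardiomyocytes and at 6.34, 2.80 and 6.21 in nonmyocytes. With 2 reads against 194, the ratio of pooled levels was 119 in favour of nonmyocytes (95% counting interval 32.6 to 993). The fitted log2 fold change was -6.53, and it was -7.28 without cardiomyocyte library 1 and -5.80 without cardiomyocyte library 2. Tgif2 did not pass the filter, and 81.3% of its exon bases are in common with other annotated genes. At Serpinb6a, a protease inhibitor gene whose exon bases are all in common with other genes and which had no read in any library, n297312 (chromosome 13, 34027900 to 34052050) was at 0.133 ± 0.0753 against 5.01 ± 0.799 CPM (SD, n = 3 each), a log2 fold change of -5.35 ± 0.66.

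Sept11, which encodes a septin of the cytoskeleton, and its lncRNA gene were both much lower in cardiomyocytes. The single-exon gene n269402 (chromosome 5, 93521784 to 93522377, minus strand) was at 0.194, 0.259 and 0.145 CPM in cardiomyocytes and 4.63, 4.25 and 5.28 in nonmyocytes. Its log2 fold change of -4.50 ± 0.59 (adjusted p = 2.14e-05 by edgeR) stood beside -4.56 ± 0.18 for Sept11. At Izumo4, of the Izumo family known from sperm, n280990 (chromosome 10, 80162574 to 80164573, minus strand, 2 exons) was at 0, 0.777 and 0.776 CPM against 6.12, 14.5 and 10.6. Its log2 fold change was -4.02 ± 0.57, and that of Izumo4 was -3.09 ± 0.38.

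In a further group the lncRNA gene was lower in cardiomyocytes while its coding gene changed by less or did not pass the test. The lncRNA gene n412916 (chromosome 12, 33817918 to 33832451, minus strand, 5 exons), 106 bases from Atxn7l1, a relative of the ataxin 7 gene, was at 0, 0.104 and 0.145 CPM in cardiomyocytes and 3.66, 3.29 and 3.88 in nonmyocytes. Its log2 fold change was -4.96 ± 0.72 (adjusted p = 4.88e-05 by edgeR), whereas Atxn7l1 was at 43.8, 28.2 and 26.5 against 41.4, 32.4 and 42.3 CPM, groups that overlap (-0.25 ± 0.23, adjusted p = 0.35). The log2 ratio of lncRNA to coding gene differed between fractions by -3.82 ± 0.60 (limma-trend adjusted p = 0.00244). Other noncoding genes share 51.6% of the exon bases of n412916.

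Cyr61 encodes a secreted matricellular protein, and its lncRNA gene n423639 (chromosome 3, 145313275 to 145315434, plus strand, 2 exons) was at 0.387, 0.932 and 0.582 CPM in cardiomyocytes and 11.5, 13.8 and 11.3 in nonmyocytes. Cyr61 was lower by far less, at 847 ± 156 against 1215 ± 58.0 CPM (-0.52 ± 0.17), and the log2 ratio differed by -3.50 ± 0.43 (limma-trend adjusted p = 0.000822). The gene n297673 (chromosome 15, 32170323 to 32174417, minus strand, 2 exons), at the axon guidance gene Sema5a, whose divergent neighbour in GENCODE M21 is the small nucleolar RNA host gene Snhg18, was at 1.94, 3.52 and 1.45 CPM against 15.3, 21.5 and 13.9. Sema5a was at 4.84, 3.26 and 3.01 against 3.73, 5.22 and 5.35 CPM, which overlap, and the log2 ratio differed by -2.50 ± 0.42 (limma-trend adjusted p = 0.00339). Exon bases in common with other noncoding genes made up 77.8% of n423639 and 84.6% of n297673.

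The genes with the highest mean levels were not those with the largest changes. The top gene, n414527 (chromosome 3, 88580978 to 88633293, plus strand, 18 exons), lies 1891 bases from Syt11, of the synaptotagmin family of vesicle proteins, and was at 29.6, 22.9 and 26.6 CPM in cardiomyocytes and 4.48, 6.96 and 4.50 in nonmyocytes. It was higher by a log2 fold change of 2.31 ± 0.28, Syt11 by 1.06 ± 0.23, and 60.3% of its exon bases are in common with other noncoding genes. At Rnf185, a ubiquitin ligase gene of the endoplasmic reticulum, n412643 was at 13.6, 26.002 and 20.02 CPM against 5.15, 3.96 and 5.67 (2.02 ± 0.31, adjusted p = 9e-05 by edgeR). Rnf185 itself did not pass the test, at 32.6 ± 9.01 against 42.1 ± 5.51 CPM, and the log2 ratio differed by 2.34 ± 0.29 (limma-trend adjusted p = 0.000822).

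At Stub1, the gene of the co-chaperone and ubiquitin ligase CHIP, n295466 was at 19.6, 16.4 and 12.3 CPM against 6.05, 1.93 and 2.33. Its log2 fold change was 2.20 ± 0.42, or 2.97 without nonmyocyte library 1, and the log2 ratio to Stub1, a gene with 55.4% of its exon bases in common with others, differed by 1.74 ± 0.42 (limma-trend adjusted p = 0.0166). At Gtf3c6, a subunit of the RNA polymerase III factor TFIIIC, n5654 was at 17.2 ± 5.58 against 8.80 ± 2.68 CPM (0.98 ± 0.32, adjusted p = 0.0161 by edgeR). It no longer passed when cardiomyocyte library 2 was left out (adjusted p = 0.126) or library totals set the scale (0.417). At Tbc1d22a, of a family of Rab regulators, n294844 was at 12.9 ± 2.08 against 6.79 ± 1.63 CPM (0.92 ± 0.31, adjusted p = 0.019), a call that was lost without cardiomyocyte library 2 (0.0768), without nonmyocyte library 1 (0.0509) and with library totals (0.502). The lncRNA gene n291206 of Crybg3, a crystallin-domain gene, was at 12.0 ± 4.93 against 8.11 ± 4.12 CPM and did not pass the test (adjusted p = 0.237), although it did without cardiomyocyte library 1 (adjusted p = 0.0394); its log2 value was 0.60 here and -0.10 with library totals.

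Divergent lncRNA genes were mostly below their coding gene in level. Per kilobase of exon, the median was 12.1% of the coding gene (quartiles 5.29% and 34.9%) over the 119 pairs in which both genes passed the filter, 53 pairs were below 10% and 10 lncRNA genes were above their partner. The highest shares among genes of at least 2 CPM were at Sema5a (1652%), Wee1 (868%), Zc3h6 (318%) and Ccdc51 (262%). Levels were divided by the full exon length, including bases in common with other annotated genes, whose reads may not have been counted. Such bases make up 79.8% of Wee1, 84.6% of the lncRNA gene of Sema5a and a part of Sema5a itself. The shares at Wee1 and Sema5a are therefore uncertain, and the median over all pairs was not corrected for such bases. At Zc3h6, a CCCH zinc-finger gene, n294081 was at 6.01, 6.53 and 6.50 CPM in cardiomyocytes and 1.49, 1.93 and 1.32 in nonmyocytes, whereas Zc3h6 was at 1.16, 3.26 and 4.99 against 6.34, 4.45 and 5.20. The lncRNA gene was higher (2.01 ± 0.40), the coding gene did not pass the test (adjusted p = 0.215), and the log2 ratio differed by 2.86 ± 0.54 (limma-trend adjusted p = 0.00568). At Ccdc51, which encodes a mitochondrial membrane protein, the groups of n297628 overlapped at 5.62, 10.05 and 4.17 against 8.88, 6.47 and 7.06 CPM. Its call depended on the scale, with an adjusted p of 0.721 here and of 0.0447 toward nonmyocytes with library totals.

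Where both genes of a pair passed the test, they mostly went the same way. Among the 119 pairs, both were called in 48: 29 were higher together in cardiomyocytes, 14 were lower together and 5 went in opposite directions. The lncRNA gene alone was called in 15 pairs, the coding gene alone in 32 and neither in 24. Across the 119 pairs, Pearson's r between the log2 fold changes was 0.69 and Spearman's rho 0.64. This is a description, since all pairs come from the same 6 libraries and without strand a pair can share reads. The pairs also include lncRNA genes for which the filter itself required a difference between fractions. Among all divergent lncRNA genes tested, 17 were above its minimum in cardiomyocyte libraries only and 29 in nonmyocyte libraries only. Their part in r, rho and the counts of pairs was not tested. Among the 76 pairs whose lncRNA gene shares no exon base with another gene, 30 went together and 4 in opposite directions. By the rule above no divergent lncRNA gene overlaps a coding gene, so this subset cannot show whether a pair shares reads.

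**Figure D3:**
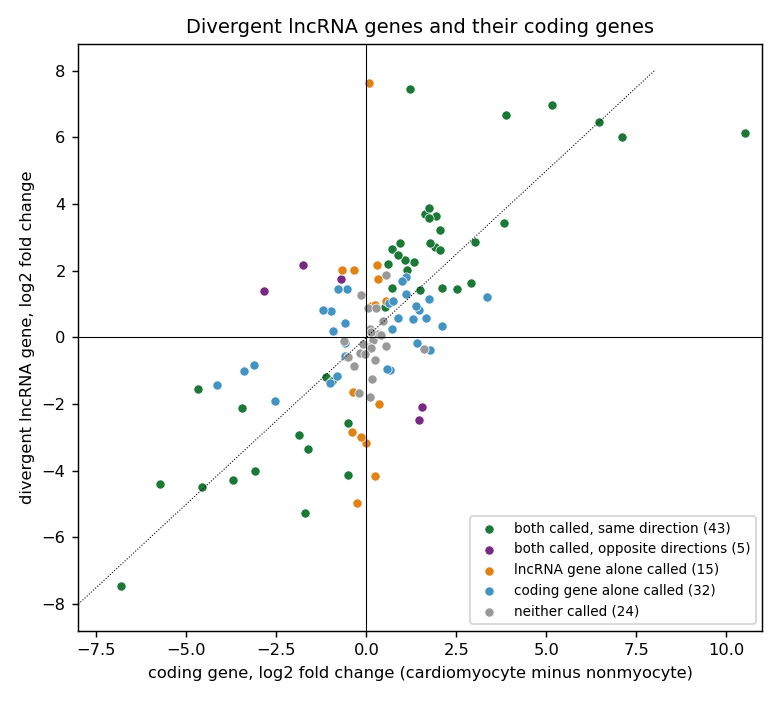
Log2 fold change, cardiomyocyte minus nonmyocyte, of the coding gene (x axis) and of its divergent lncRNA gene (y axis) for the 119 pairs with both genes tested; each point is a pair, coloured by which gene was called, and the dotted line marks equal change. The 43 pairs called in the same direction lie in the upper right and lower left, and 5 pairs called in opposite directions lie in the other corners.

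Pairs with both genes called mostly went together at short and at longer distance. With a gap of up to 250 bases, both genes were called in 19 of 57 pairs, 17 together and 2 in opposite directions. With a gap of over 1000 bases, both were called in 12 of 32 pairs, 12 together and 0 in opposite directions. Other neighbours gave a range of values: of the pairs with both genes called, the share going together was 89.6% for divergent lncRNA genes, 96.2% for lncRNA genes downstream on the same strand (126 of 131), 80.8% for those downstream on the opposite strand (21 of 26) and 91.7% for those upstream on the same strand (11 of 12). For divergent pairs of 2 coding genes it was 60.4% (136 of 225), with r = 0.20 across 610 pairs. The differences between these shares were not tested.

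**Figure D4:**
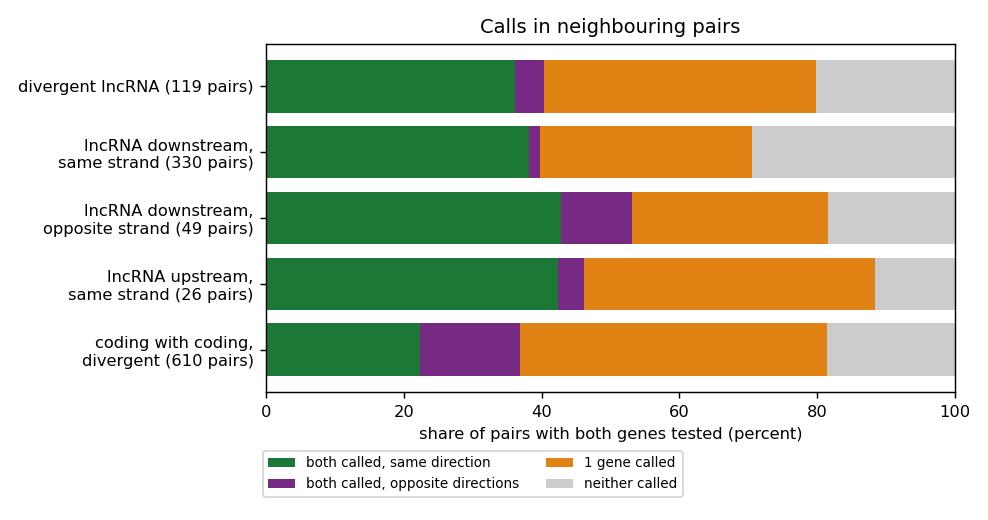
Share of neighbouring pairs (x axis, percent) by outcome of the test, for divergent lncRNA genes and 4 other kinds of neighbours within 5000 bases (y axis, with the number of pairs). The bar of divergent lncRNA genes holds 43 of 119 pairs called in the same direction and 5 in opposite directions.

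Within many pairs the genes moved by unequal amounts. The log2 ratio of lncRNA to coding gene differed between fractions in 33 of 119 pairs (limma-trend, adjusted p under 0.05 over 524 neighbour pairs), 20 toward cardiomyocytes and 13 toward nonmyocytes. That is 27.7%, against a background of 20.8% of all 524 pairs. A count model of each pair, added after the data were seen, called 34 (28.6%, background 19.7%), and 28 were called by both with the same sign, 18 toward cardiomyocytes and 10 toward nonmyocytes. Both lncRNA gene and coding gene were lower in cardiomyocytes at Rbms3, an RNA-binding protein gene, but by unequal amounts. Its lncRNA gene n269637 (chromosome 9, 117161653 to 117163814, plus strand, 3 exons) was at 0.969, 1.45 and 1.503 CPM in cardiomyocytes and 4.40, 3.77 and 3.65 in nonmyocytes, while Rbms3 was at 1.94, 1.04 and 2.13 against 51.4, 36.9 and 40.0. The log2 fold changes were -1.54 ± 0.47 and -4.68 ± 0.32, and the log2 ratio differed by 3.07 ± 0.48 (limma-trend adjusted p = 0.00244).

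The 5 opposite pairs were Jdp2, Irx2, Hccs, Sept2 and Pfn1, and in all 5 the difference passed both tests of the pair. These pairs were picked by opposite calls in the same libraries, so passing the tests of the pair is no separate support. At Jdp2, a transcription factor that pairs with AP-1 proteins, n287594 (chromosome 12, 86938539 to 86940122, minus strand, 1 exon) was at 13.6, 6.06 and 5.28 CPM in cardiomyocytes and 3.51, 2.22 and 3.41 in nonmyocytes, and no exon base is shared by either gene. Jdp2 was at 5.04, 10.5 and 12.99 against 74.0, 76.7 and 62.3 CPM. The lncRNA gene was higher by 1.39 ± 0.44 and Jdp2 lower, at -2.84 ± 0.28, on the log2 scale, and the log2 ratio differed by 4.28 ± 0.65 (limma-trend adjusted p = 0.00229). The lncRNA gene's own call (adjusted p = 0.014 by edgeR) was lost without nonmyocyte library 2 (0.0558) and with library totals (0.165).

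The other opposite pairs other than Irx2 were named after their values were seen. The lncRNA gene of Hccs, whose product attaches haem to cytochrome c, was lower in cardiomyocytes, at 0.287 ± 0.285 against 1.5 ± 0.597 CPM, while Hccs was at 38.5 ± 6.52 against 13.2 ± 2.04. The lncRNA gene of Sept2, a septin, was higher, at 2.30 ± 0.497 against 0.684 ± 0.166 CPM, with Sept2 at 111 ± 28.5 against 183 ± 26.8. The lncRNA gene of Pfn1, the actin-binding profilin, was at 1.88 ± 0.527 against 0.405 ± 0.357 CPM, with Pfn1, which has 63.7% of its exon bases in common with other genes, at 201 ± 14.7 against 676 ± 91.2. How many opposite pairs were called depended on the samples and scale. The count was 2 without cardiomyocyte library 2 or 3, 1 without nonmyocyte library 2, 3 without nonmyocyte library 3, 3 with library totals and 0 when a change of over 2-fold was required.

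Of 37 listed heart transcription factor genes, 9 had at least 1 divergent lncRNA gene, 13 in all. Of these, 6 passed the filter: 3 were higher in cardiomyocytes, 2 were lower and 1 did not pass the test. The 34 factors of the list that were tested themselves were 25 higher, 3 lower and 6 not called. Over all genes tested, 63.7% were called, 31.6% higher and 32.1% lower, and no difference from these shares was tested. Prdm16 is described above. The lncRNA gene n268635 of Tbx5, a T-box factor of septation and conduction, lies 2871 bases away (chromosome 5, 120280938 to 120281800, minus strand, 2 exons) and was at 1.55, 3.06 and 2.42 CPM in cardiomyocytes and 0.448, 0 and 0.155 in nonmyocytes. It was higher by 3.44 ± 0.83 on the log2 scale (adjusted p = 0.00275 by edgeR), and Tbx5 by 3.81 ± 0.29. Only 8 nonmyocyte reads stand behind the lncRNA gene, and its change was 4.72 without nonmyocyte library 1.

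At Gata6, a zinc-finger factor of early heart development, n287588 was at 1.94, 3.16 and 2.62 CPM against 0.373, 0.290 and 0.931 (2.26 ± 0.64, adjusted p = 0.00778 by edgeR), and Gata6 was higher by 1.31 ± 0.20. Without nonmyocyte library 3, the change of n287588 was 2.97. At Hand2, a basic helix-loop-helix factor of the right ventricle, the lncRNA gene n288450 was at 2.52, 3.78 and 3.05 CPM against 0.896, 1.55 and 2.48. Those groups just missed overlapping, and the change of 0.94 ± 0.53 did not pass the test (adjusted p = 0.137 by edgeR), whereas Hand2 was higher by 1.38 ± 0.24. Per kilobase, n288450 was at 0.678% of Hand2.

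The factors Irx2 and Tbx20 had lncRNA genes that were lower in cardiomyocytes. At Irx2, an Iroquois homeodomain factor, n415142 was at 0, 0.259 and 0.776 CPM in cardiomyocytes and 2.24, 3.19 and 1.71 in nonmyocytes (-2.49 ± 0.77, adjusted p = 0.0125 by edgeR). Irx2 was at 17.0, 10.9 and 7.37 against 5.37, 3.58 and 3.49 CPM, higher by 1.47 ± 0.38, and the log2 ratio differed by -4.11 ± 0.91 (limma-trend adjusted p = 0.0114). This lncRNA gene no longer passed when cardiomyocyte library 2 (adjusted p = 0.0576) or nonmyocyte library 2 (0.0535) was left out, and its change was -3.63 without cardiomyocyte library 3. At Tbx20, a T-box factor needed for adult muscle function, n269883 was at 0, 0.207 and 0 CPM against 0.821, 0.966 and 1.09 (-3.34 ± 1.01, adjusted p = 0.0113). All 4 cardiomyocyte reads of n269883 are in library 2, so that the change was -6.59 without that library and -2.62, with an adjusted p of 0.0524, without cardiomyocyte library 3. Tbx20 was lower as well, at 104 ± 18.9 against 320 ± 67.5 CPM.

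**Figure D5:**
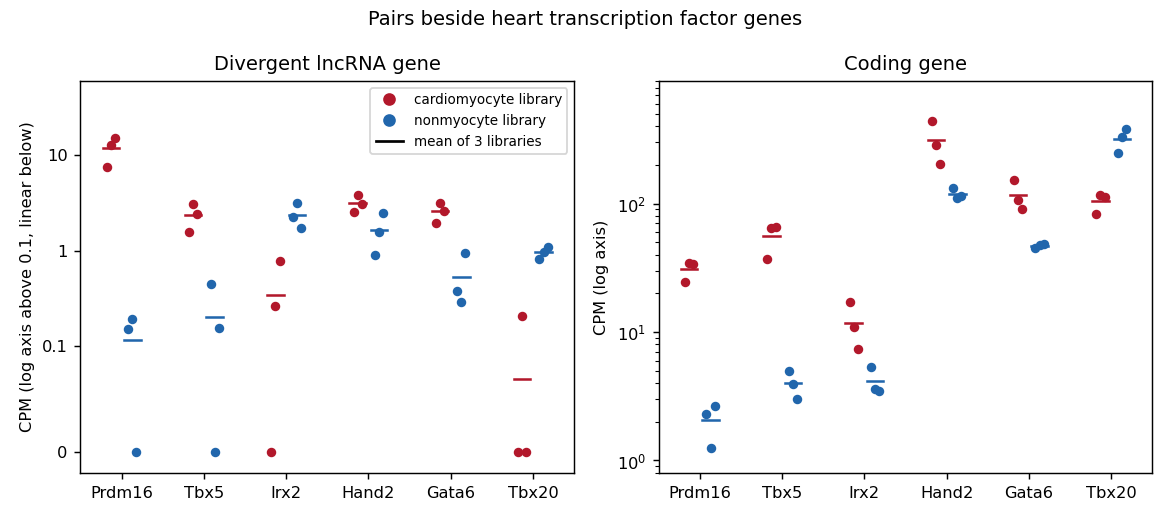
CPM of the divergent lncRNA gene (left, y axis logarithmic above 0.1 and linear below) and of the coding gene (right, logarithmic y axis) for the 6 heart transcription factor pairs tested; points are libraries and bars are means of 3 libraries. Fractions stand on opposite sides at Irx2 and on the same side at Prdm16, Tbx5, Gata6 and Tbx20.

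In other gene lists few divergent lncRNA genes could be tested, as among all 1870, of which 6.68% passed the filter. A short list with none tested is therefore no result about that list. Of 27 beside 13 mesenchymal transcription factor genes, 1 passed the filter, n265678 of Sox4, an HMG-box factor; it was at 1.74, 1.502 and 1.70 CPM against 0.896, 0.773 and 1.16 and did not pass the test (adjusted p = 0.257), while Sox4 was lower by a log2 change of -0.97 ± 0.19. Its log2 ratio to Sox4, a gene with 54.8% of its exon bases in common with others, differed by 1.71 ± 0.51 (limma-trend adjusted p = 0.0417). Sarcomere and calcium genes had 11 beside Actc1, Kcnd3 and Pln, of which only n269828 was tested. Of the 20 beside 12 RNA processing and ribosome genes, 2 were tested and neither passed: n272537 of Hnrnpu, a nuclear RNA-binding protein gene, was at 3.39 ± 2.48 against 1.18 ± 0.999 CPM (adjusted p = 0.147), and n294280 of Rbm15, which recruits the RNA methylation machinery, at 2.55 ± 0.833 against 1.16 ± 0.889 (adjusted p = 0.159). Rbm15's lncRNA gene did pass without nonmyocyte library 3 (adjusted p = 0.0395). None was tested among the 9 beside mitochondrial genes, the 7 beside extracellular matrix genes and the 8 beside cell division and repair genes.

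A few divergent lncRNA genes had no read at all in one fraction; they were chosen after their values were seen. The gene n282822 (chromosome 13, 58256501 to 58258936, minus strand), at the uncharacterised gene 5133401N09Rik, was at 1.94, 2.12 and 1.36 CPM in cardiomyocytes and 0 in all nonmyocyte libraries, at least 21.4-fold higher when nonmyocytes are set to the limit of 3 counts over the group. The coding gene was at 16.7 ± 3.17 against 15.8 ± 2.86 CPM, with an adjusted p of 0.849. At Cfl2, the muscle cofilin gene, n296384 (chromosome 12, 55963977 to 55964651, plus strand) was at 2.33, 1.35 and 1.26 CPM against 0, at least 17.3-fold higher, with Cfl2 at 87.7 ± 20.6 against 37.9 ± 6.38. At the homeobox gene Emx2, n412418 (chromosome 19, 59499593 to 59533125, minus strand) was at 0 in all cardiomyocyte libraries and 1.57, 1.35 and 1.86 CPM in nonmyocytes, at least 24.2-fold lower in cardiomyocytes, with Emx2 at 0.101 ± 0.104 against 15.8 ± 1.68.

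The limit of 5000 bases was a choice. Just inside it among tested genes, n291249 of Ibtk (4925 bases) was at 7.25 CPM in cardiomyocytes and 3.40 in nonmyocytes, n265678 of Sox4 (4307) at 1.65 and 0.944, and n293833 of Foxo6 (3999) at 7.79 and 0.0571. Just outside it, n278826 (5091) was at 1.83 and 0.866 CPM, n282748 (5330) at 1.54 and 1.00, and n285645 (5510) at 1.28 and 0.892.

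The later GENCODE M21 annotation (build GRCm38) lists a divergent lncRNA for 441 of the 1210 coding genes found in it by identifier. For the 120 coding genes beside tested divergent lncRNA genes the number is 48, among them C130080G10Rik at Actc1, Gm43050 at Tbx5, Gm20554 at Irx2 and F730043M19Rik at Atxn7l1. These are neighbours in another build and were not matched to the deposited genes by identifier or position.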

How the data were processed

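The authors deposited a table of raw counts per gene for 6 polyadenylated RNA libraries, 3 of cardiomyocytes and 3 of cultured nonmyocytes, and the annotation used. Libraries were single-end and not strand-specific, per the labels' protocols. The submitters' processing notes name Bowtie, TopHat 1.3.0, HTSeq, DESeq, edgeR and builds mm9 and NCBIM37, with no roles given. The counting rule is not given in the sources used here. The small RNA libraries were not used here.

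From these counts, gene positions were read from the deposited annotation, and all genes were fitted with edgeR 4.0.16 (R 4.3.3; TMM scaling, filterByExpr with a minimum count of 10, robust quasi-likelihood test, two-sided, Benjamini-Hochberg adjustment). Of 57683 genes, 14734 were tested. The log2 ratio of lncRNA to coding gene (prior count 2) was tested with limma 3.58.1 (trend) over 524 neighbour pairs. Values with ± are means with SD over 3 libraries, or log2 changes with SE. Intervals and limits cover counting error only. Scripts were tested on simulated data. Alternatives included DESeq2 1.42.0, voom, other scalings, no filter, a 2-fold threshold, a replicate block and leaving out each library.

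Members, gene lists and tests were chosen with earlier results of these data known. Named genes were the 6 with the highest mean, per direction the 6 largest called changes and the 4 pairs with the largest shared change (with at least 2 CPM in each library of the fraction where they are higher, and for the former no overlap between fractions), opposite pairs at the same level, the 4 highest lncRNA shares per kilobase, those beside genes of the lists, and 3 nearest the distance limit on its inner side. Sequences came from RefSeq (GRCm38.p6), since no mm9 genome was used. A pair that the naming rule selects is not reported here.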

Additional observations from a re-analysis of the deposited data

How the results depend on the processing

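The numbers of called divergent lncRNA genes (41 higher, 26 lower), of pairs in the same (43) and opposite (5) direction and of unequal pairs (33) stayed within 1.5 times under DESeq2, voom, DESeq2 size factors and upper quartile scaling, as far as each applies, and no called named gene changed direction under any alternative run. Of those not called, n291206 was at 0.60 and, with library totals, at -0.10, and n297628 at -0.17 and, without cardiomyocyte library 3 or nonmyocyte library 1, at 0.10 or 0.03 (log2). With library totals, 25 were higher and 3 pairs opposite. Without the filter on low counts, 67 were higher, 47 lower, 69 pairs went together, 12 in opposite directions, and 205 changed unequally. Requiring over 2-fold left 26 higher, 22 pairs together and 0 opposite. Among genes sharing no exon base, 13 were lower and 18 unequal. Leaving out each library gave 30 to 47 higher, 19 to 29 lower, 34 to 50 pairs together, 1 to 6 opposite and 23 to 36 unequal. A prior count of 0.5 gave 25 unequal pairs. The cause of these shifts was not tested, beyond fewer or more genes tested. Library numbers were not shown to pair samples: deviations of same-numbered libraries correlated at 0.16, 0.05 and 0.10. Those of differently numbered libraries correlated at -0.16 to 0.07, and whether the numbers pair samples was not tested. The replicate block gave 40 higher, 24 lower, 41 pairs together, 3 opposite and 33 unequal. Low depth limits most of these genes: a count of 0 allows up to 0.581 CPM in the shallowest library.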

Other observations

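Of the 15 pairs in which the lncRNA gene alone was called, several lay outside the naming rule, of which Rnf40 and Srp68 are given as examples chosen after their values were seen. At Rnf40, a ligase that ubiquitinates histone H2B, n270199 (chromosome 7, 134730577 to 134731696, minus strand) was at 8.33, 9.27 and 8.77 CPM in cardiomyocytes and 3.73, 2.13 and 2.02 in nonmyocytes, while Rnf40 was at 112 ± 6.55 against 89.3 ± 14.8 CPM (SD, n = 3 each) and did not pass the test (edgeR quasi-likelihood adjusted p = 0.111). The log2 ratio differed by 1.41 ± 0.33 (limma-trend adjusted p = 0.0141), and neither gene shares an exon base with another. At Srp68, a subunit of the signal recognition particle, n274346 was at 0.0485 ± 0.084 CPM in cardiomyocytes and 1.3 ± 0.507 in nonmyocytes, and the log2 ratio differed by -3.15 ± 0.55. Its cardiomyocyte mean lies below the limit of 3 counts in each cardiomyocyte library (0.145 to 0.581 CPM). It passed the filter through nonmyocytes only, so the size of this difference is uncertain and its call is no separate support.

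Among divergent lncRNA genes more than 5000 bases from their coding gene, 83 of 2107 passed the filter on low counts (3.94%). Within that distance 125 of 1870 passed (6.68%). The share was 3.90% for lncRNA genes beyond 5000 bases in other orientations. Within 5000 bases it was 22.9% downstream on the same strand, 12.3% downstream on the opposite strand and 8.64% upstream on the same strand. Of the 83, 25 were higher in cardiomyocytes and 30 lower, 66.3% called against 63.7% of all genes tested. These differences were not tested.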
